A study of Danio rerio with 12 samples.

Results

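The genes that build the mitotic spindle, the kinetochore and condensed chromosomes were followed in pools of zebrafish embryos at 10 somites by RNA sequencing. They were taken from the deposited table by name, as the centromere protein (cenp) genes, the mitotic kinesins, the Ndc80, chromosomal passenger and condensin subunits, the spindle checkpoint genes, and the cyclins, kinases and cytokinesis genes that drive mitosis. The names matched 63 of 31051 gene identifiers, under 60 names, since BUB1B, ccna2 and ccnb1 each stood for 2 identifiers. Of the 63, 61 passed the filter on low counts and were tested among 18117 genes. The names cenpa, ccnf, prc1a and kif20ba of the same rule were not analysed here. Gene names are spelled as in the deposited table, where capitals mark genes named after their human counterparts.

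All 4 groups were of the AB strain and had 3 libraries each, and every embryo had received morpholinos, antisense molecules that block a target RNA, by injection as a single cell. A control morpholino was used in prdm1+/+ embryos (controls) and in prdm1-/- embryos (prdm1 mutants), and pbx2/4 morpholinos were used in prdm1+/+ embryos (pbx2/4 morphants) and in prdm1-/- embryos (double embryos). prdm1 encodes a zinc-finger repressor needed for slow muscle, and pbx2 and pbx4 encode homeodomain partners of Hox and myogenic factors. RNA was isolated from single embryos, genotyped and then pooled by group, and 3 independent rounds of egg collection and injection are described. The sources used here do not give the mutant allele, the morpholino sequences or the number of embryos in a pool. Whole embryos were used, so fewer dividing cells and less of these RNAs per cell cannot be told apart. Total estimated counts were 9059663 to 17236848 per library. Column names of the count table come in 3 forms, and each form (set A, B or C) has 1 library of every group. Libraries of the same set deviated together across genes, so values are given in the order of sets A, B and C, and a fit with the set as a block is named where it changes a call.

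During mitosis, Cdk1 bound to cyclin A or cyclin B starts chromosome condensation and spindle assembly, kinesins and microtubule-associated proteins build the bipolar spindle, and kinetochores on the centromeres attach chromosomes to it. The spindle checkpoint holds the anaphase-promoting complex in check until all kinetochores are attached, after which separase cuts cohesin and the central spindle directs cytokinesis. Most of these RNAs are known to be made mainly in the G2 and M phases, so that in whole tissue they mark dividing cells. The roles given below come largely from work in human cells, frog egg extracts and yeast.

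Mitotic gene RNA was lower in embryos with pbx2/4 morpholinos, in either prdm1 genotype, and differed little with prdm1 genotype. The 63 genes summed to 6039.8, 6389 and 6521 CPM (counts scaled to a common library size with TMM factors) in the 3 controls, 6193, 6598 and 6557 in the 3 prdm1 mutants, 4970.1, 4811 and 5237 in the 3 morphants and 4898, 5109 and 5450.3 in the double embryos. All 6 libraries with pbx2/4 morpholinos lay below all 6 without them, and within each set both libraries with them lay below both without. The group means were 6317 ± 249 CPM in controls, 6449.6 ± 223 in mutants, 5006 ± 215 in morphants and 5152 ± 279 in double embryos (SD, n = 3). The summed level thus differed by -20.8% between morphants and controls and by -20.1% between double embryos and prdm1 mutants. It differed by 2.10% between prdm1 mutants and controls and by 2.92% between double embryos and morphants. As a share of the unscaled counts, the genes made up 0.605% to 0.652% of a library without pbx2/4 morpholinos and 0.486% to 0.553% of one with them. No test was made of the sum, whose members were chosen with results known.

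**Figure D1:**
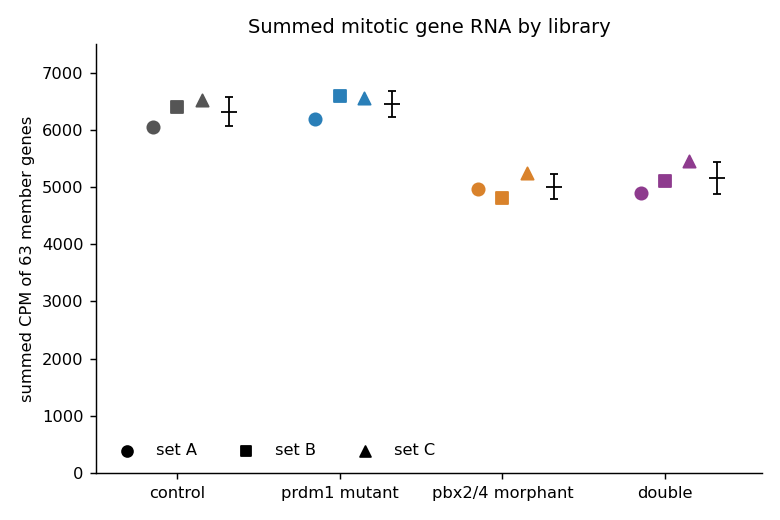
Summed CPM of the 63 genes in each library, by group (x axis) and column-name set (marker shape). The bar beside each group is the mean ± SD of its 3 libraries. The 6 libraries with pbx2/4 morpholinos sit between 4811 and 5450.3 CPM, below the 6039.8 to 6598 of the 6 without.

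The gene-by-gene comparison averaged the pbx2/4 morpholino effect over both prdm1 genotypes, 6 libraries against 6. In edgeR's quasi-likelihood test, called at an adjusted p under 0.05, 19 of the 61 genes fell and 0 rose, where 4.23% of all genes tested were called lower and 2.95% higher. With the set as a block, 49 fell and 0 rose, where 16.6% of all genes were called lower and 15.5% higher. Leaving out 1 library at a time gave 8 to 18 genes that fell (44 to 49 with the block, where cenpv rose in the fit without the control of set C), and leaving out all 4 libraries of set A, B or C gave 5, 6 and 0. With all 12 libraries and no block, the median log2 fold change of the 61 was -0.29, a change of -17.9%, against 0.01 over all genes tested. Of the 61, 58 had lower estimates, where 48.0% of all genes did. Within each of the 3 sets 52 of the 61 were lower, a count for which the share of all genes is not given. The size of the change varied among members: 5 had a log2 fold change below -0.5, 42 lay between -0.5 and -0.2, and 14 were at -0.2 or above. For 19 of the 61, all 6 libraries with pbx2/4 morpholinos lay below all 6 without, and for 0 they lay above, where 3.71% and 2.56% of all genes did so. These are not the same genes throughout: cenpi, CCNA2 (2 of 2), plk4 and KIF20A had separate ranges without a call, and CENPF, KIF18A, ncaph and ttk were called with ranges that overlapped. Members of higher CPM had larger falls across the 61 genes (Spearman's rho -0.40), a description in which all genes share the same libraries and the low genes carry more counting error.

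**Figure D2:**
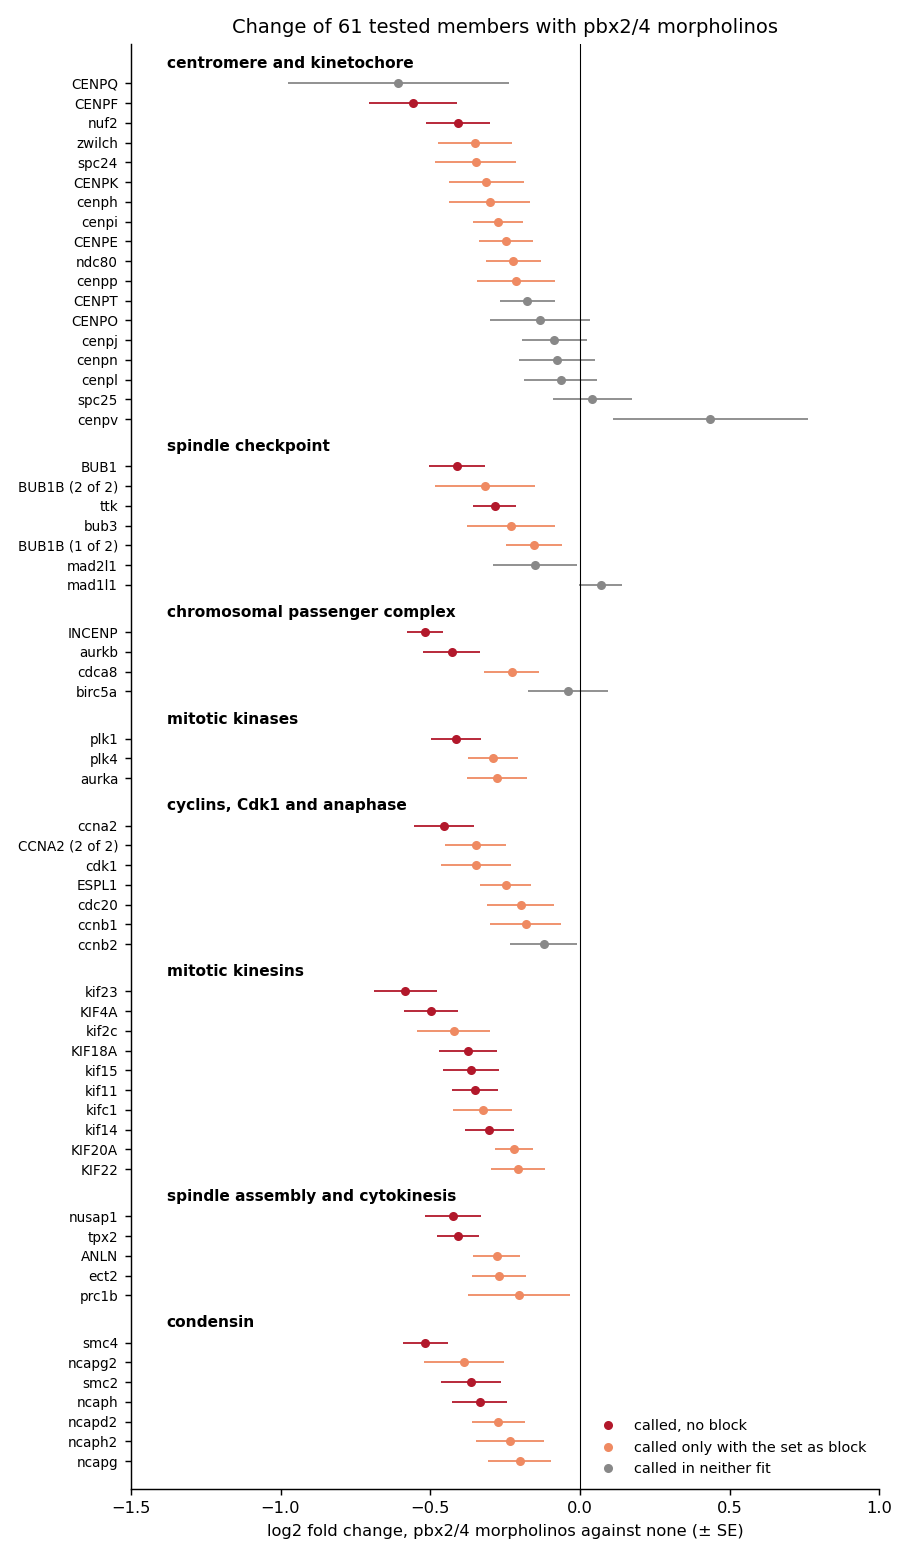
Log2 fold change with pbx2/4 morpholinos, averaged over prdm1 genotypes, for the 61 tested genes by role. Points are edgeR estimates and bars their standard errors. The 19 genes called without the block are dark red, 30 called only with the set as a block are orange and 12 called in neither fit are grey, and 58 of 61 points lie left of 0.

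Among the 18 centromere and kinetochore genes, 2 fell and 0 rose without the block, and 10 fell with it. CENPF (ENSDARG00000055133), a large coiled-coil protein that joins kinetochores late in G2, had 258, 142 and 241 CPM in the 3 controls, 242, 195 and 235 in the 3 mutants, 151, 123 and 141 in the 3 morphants and 162, 127 and 189 in the 3 double embryos. The control of set B was low, so the 2 ranges overlapped, but within sets the differences were -0.68, -0.41 and -0.54 on the log2 scale. CENPF fell by 0.56 log2 units (SE 0.15, adjusted p = 0.0406). nuf2 (ENSDARG00000034624), a subunit of the Ndc80 complex that binds spindle microtubules, had 43.6, 52.8 and 53.6 CPM in the 3 controls, 45.8, 50.5 and 55.6 in the 3 mutants, 33.0, 43.2 and 39.3 in the 3 morphants and 31.0, 41.4 and 40.2 in the 3 double embryos. It fell by 0.41 (SE 0.11, adjusted p = 0.0401), and its 2 ranges did not overlap. CENPF and nuf2 each kept the call in 3 of the 12 fits that leave out 1 library (adjusted p up to 0.106 and 0.105). The partners of nuf2 in that complex had unequal estimates, and differences between them were not tested. spc24 was at -0.35 log2 units (adjusted p = 0.160, 0.00149 with the block), ndc80 at -0.22 (adjusted p = 0.184, 0.00510 with the block) and spc25 at 0.04 (adjusted p = 0.912, 0.753 with the block). ndc80 itself had 77.4 to 90.9 CPM (median 87.9) in the 6 libraries without pbx2/4 morpholinos and 64.0 to 83.4 (median 71.4) in the 6 with them. spc25 (ENSDARG00000078433) had 25.1, 27.8 and 30.4 CPM in the 3 controls, 25.8, 28.8 and 31.1 in the 3 mutants, 23.3, 32.1 and 31.8 in the 3 morphants and 22.3, 27.7 and 36.6 in the 3 double embryos, and its groups overlapped throughout. CENPE (ENSDARG00000063385), a kinesin of the kinetochore that moves chromosomes to the spindle equator, had 293 to 384 CPM (median 339.7) in the 6 libraries without pbx2/4 morpholinos and 259 to 325 (median 269) in the 6 with them, a change of -0.25 that was called only with the block (adjusted p = 0.135 without and 0.000319 with it).

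The inner kinetochore genes, whose products sit on centromeric chromatin throughout the cell cycle, had unequal estimates, and differences between genes were not tested. With the block cenpi (-0.27), CENPK (-0.31), cenph (-0.30) and cenpp (-0.21) fell, while CENPT (-0.18), CENPO (-0.13), cenpn (-0.08) and cenpl (-0.06) did not pass in either fit. cenpi was the member of this group, besides nuf2, whose libraries did not overlap, with 47.7 to 61.7 CPM (median 50.7) in the 6 libraries without pbx2/4 morpholinos and 40.8 to 46.9 (median 42.8) in the 6 with them. zwilch, of the complex that brings dynein to kinetochores, had -0.35 and was called only with the block (adjusted p = 0.115, 0.000341 with the block). CENPQ had the largest estimate of the 61, -0.61, but from 1 to 16 counts per library, and it passed in neither fit (adjusted p = 0.397, 0.213 with the block). cenpv had the highest estimate, 0.44, from 15 to 91 counts (adjusted p = 0.513, 0.191 with the block), and it was higher in sets A and B but lower in set C (-0.21). It was called higher with the block once the control of set C was left out (adjusted p = 0.0195). cenpj, which carries a cenp name but encodes a centriole assembly protein, had -0.09 (adjusted p = 0.732, 0.451 with the block).

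Of the 7 spindle checkpoint genes, 2 fell and 0 rose, and 5 fell with the block. BUB1 (ENSDARG00000077029), the checkpoint kinase that marks unattached kinetochores, had 177, 168 and 149 CPM in the 3 controls, 178, 159 and 161 in the 3 mutants, 141, 107 and 120.4 in the 3 morphants and 144, 123 and 111 in the 3 double embryos. No library with pbx2/4 morpholinos reached the lowest of the others, and BUB1 fell by 0.41 log2 units (SE 0.09, adjusted p = 0.0219). ttk (ENSDARG00000041361), the Mps1 kinase that starts the checkpoint signal, had 108, 97.7 and 113 CPM in the 3 controls, 128, 119 and 125 in the 3 mutants, 82.9, 88.7 and 93.8 in the 3 morphants and 96.1, 96.3 and 108 in the 3 double embryos. It fell by 0.29 (SE 0.07, adjusted p = 0.0357), although the double embryo of set C lay within the range of the controls. BUB1 kept its call in 8 and ttk in 3 of the fits that leave out 1 library (adjusted p up to 0.0562 and 0.0991). bub3 (-0.23) and the identifiers named BUB1B (1 of 2) and BUB1B (2 of 2), at -0.15 and -0.32, were called only with the block (adjusted p = 0.000609, 0.0313 and 0.0179 with it, and 0.424, 0.393 and 0.315 without). The reference table of names lists the BUB1B pair as bub1bb and bub1ba. mad2l1, which binds and restrains Cdc20, had -0.15 (adjusted p = 0.623, 0.0868 with the block). mad1l1 (ENSDARG00000033852), its anchor at the kinetochore, had 35.0, 39.7 and 38.0 CPM in the 3 controls, 40.1, 40.9 and 38.8 in the 3 mutants, 38.3, 42.9 and 39.9 in the 3 morphants and 41.7, 41.2 and 39.8 in the 3 double embryos. Its log2 fold change was 0.07 (95% interval -0.09 to 0.23, adjusted p = 0.661), and it was the member that was higher within each of the 3 sets.

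The chromosomal passenger complex, which corrects faulty attachments and later marks the division plane, held the gene with the smallest p-value of all 61. INCENP (ENSDARG00000077270), its scaffold, had 212, 217 and 217 CPM in the 3 controls, 211, 224 and 213 in the 3 mutants, 148, 149 and 155 in the 3 morphants and 144, 154 and 153 in the 3 double embryos. The 6 libraries with pbx2/4 morpholinos spanned 144 to 155 CPM, below the 211 to 224 of the others, and both ranges were narrow. INCENP fell by 0.52 log2 units (SE 0.06, adjusted p = 0.000329), with -0.53, -0.54 and -0.48 within the sets. Its deposited counts were not whole in 6 of 12 libraries, each rounded for the test. aurkb (ENSDARG00000037640), the kinase of the complex, had 81.6, 103 and 82.6 CPM in the 3 controls, 80.6, 101 and 79.7 in the 3 mutants, 66.2, 73.0 and 62.8 in the 3 morphants and 62.5, 67.9 and 60.5 in the 3 double embryos. Set B was the highest of the 3 in each group, and no library with pbx2/4 morpholinos reached those without. aurkb fell from 89.1 ± 12.1 CPM in controls (SD, n = 3) and 87.2 ± 12.2 in prdm1 mutants to 67.3 ± 5.15 in morphants and 63.6 ± 3.85 in double embryos, an averaged change of -0.43 log2 units (SE 0.09, adjusted p = 0.0176). cdca8, the borealin gene, had -0.23 and was called only with the block (adjusted p = 0.176, 0.00532 with it). birc5a (ENSDARG00000075621), a survivin gene of the same complex, had 21.2, 30.3 and 31.6 CPM in the 3 controls, 26.4, 29.5 and 33.2 in the 3 mutants, 23.9, 30.4 and 29.6 in the 3 morphants and 21.9, 32.7 and 29.1 in the 3 double embryos. The groups overlapped throughout, and its log2 fold change was -0.04 (95% interval -0.33 to 0.25, adjusted p = 0.917, 0.619 with the block). birc5b, its paralog, had 0 to 9 counts per library and was not tested.

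**Figure D3:**
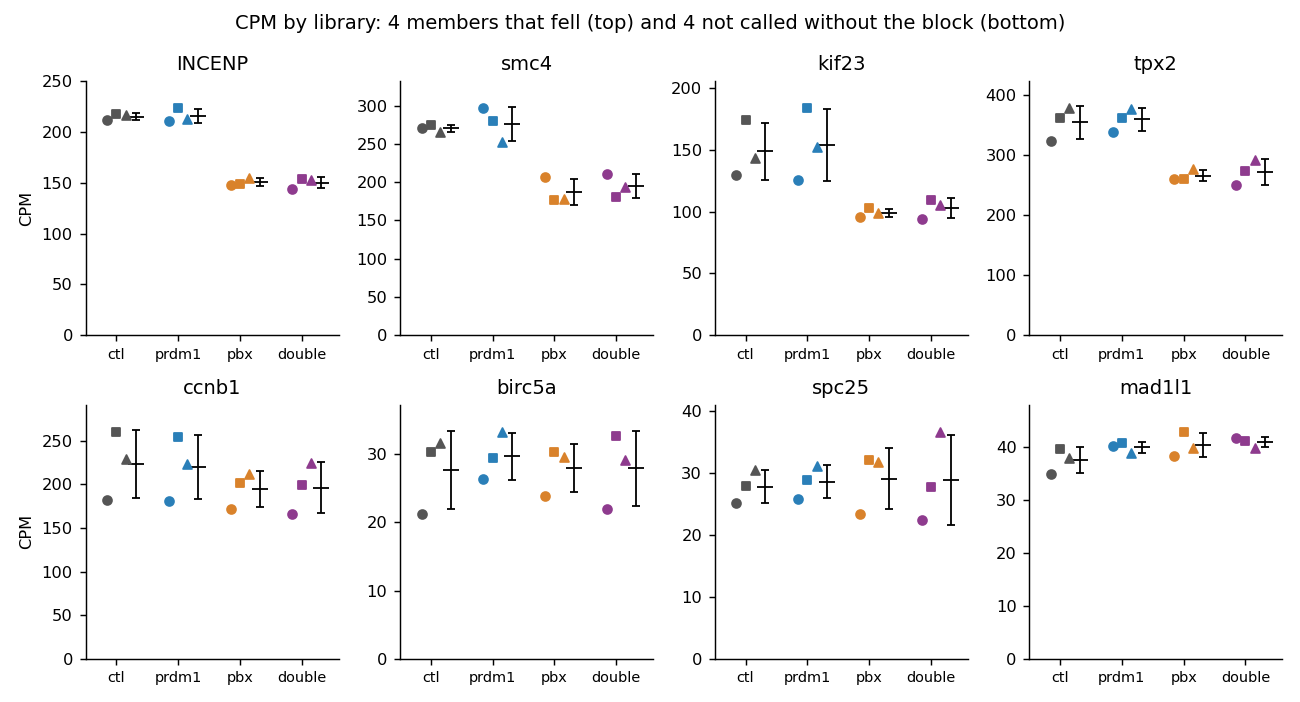
CPM in each library for 8 genes, by group (x axis: controls, prdm1 mutants, pbx2/4 morphants, double embryos) and set (marker shape: circle A, square B, triangle C), with the mean ± SD of the 3 libraries beside each group. INCENP, smc4, kif23 and tpx2 in the upper row have no overlap between libraries with and without pbx2/4 morpholinos, while ccnb1, birc5a, spc25 and mad1l1 in the lower row overlap.

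Of the 3 mitotic kinases 1 fell without the block and 3 with it. plk1 (ENSDARG00000058471), the Polo-like kinase that acts from mitotic entry to cytokinesis, had 267, 289.7 and 322 CPM in the 3 controls, 274, 285 and 311 in the 3 mutants, 208, 199.9 and 241 in the 3 morphants and 199, 219.8 and 245 in the 3 double embryos. It fell by 0.41 log2 units (SE 0.08, adjusted p = 0.0107), with no overlap. aurka, the spindle pole kinase, and plk4, the centriole duplication kinase, had -0.28 and -0.29, called only with the block (adjusted p = 0.000796 and 0.00232 with it, 0.132 and 0.0566 without). aurka had 64.3 to 90.0 CPM (median 76.7) in the 6 libraries without pbx2/4 morpholinos and 57.5 to 69.4 (median 64.5) in the 6 with them. Of the 7 tested genes for Cdk1, cyclins, Cdc20 and separase, 1 fell without the block and 6 with it. ccna2 (ENSDARG00000011094), the cyclin A2 gene, had 92.2, 88.5 and 96.5 CPM in the 3 controls, 93.4, 93.7 and 93.2 in the 3 mutants, 72.7, 51.2 and 76.9 in the 3 morphants and 66.0, 64.8 and 75.3 in the 3 double embryos. Its morphant of set B was the lowest library, and ccna2 fell by 0.45 (SE 0.10, adjusted p = 0.0172), a call lost without the control of set C (adjusted p = 0.0512). The second identifier, CCNA2 (2 of 2), had 56.0 to 65.8 CPM (median 61.4) in the 6 libraries without pbx2/4 morpholinos and 38.1 to 54.6 (median 48.8) in the 6 with them and changed by -0.35 log2 units (adjusted p = 0.0600, 0.00421 with the block). Counts of both identifiers were whole in every library. Whether reads were split or shared between them was not examined, so the 2 may not be independent.

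cdk1 (ENSDARG00000087554), the kinase that cyclin A2 and the B cyclins activate, had 103, 118 and 126 CPM in the 3 controls, 102, 113 and 129.6 in the 3 mutants, 82.4, 80.7 and 105 in the 3 morphants and 77.9, 84.1 and 114 in the 3 double embryos. Set C was the highest in each group, and the change of -0.35 log2 units passed only with the block (adjusted p = 0.101, 0.000107 with it). ccnb1 (ENSDARG00000051923), the main mitotic cyclin gene, had 182, 260.0 and 229 CPM in the 3 controls, 181, 255 and 223 in the 3 mutants, 172, 201 and 211 in the 3 morphants and 165, 199 and 224 in the 3 double embryos. Its spread over sets exceeded the difference between groups, and its log2 fold change was -0.18 (SE 0.12, adjusted p = 0.439, 0.0154 with the block). ccnb2 had -0.12 and passed in neither fit (adjusted p = 0.615, 0.175 with the block). cdc20, the activator of the anaphase-promoting complex, had 105 to 146 CPM (median 139.7) in the 6 libraries without pbx2/4 morpholinos and 98.5 to 126 (median 118) in the 6 with them, and ESPL1, which encodes separase, had 84.8 to 105 CPM (median 94.5) in the 6 libraries without pbx2/4 morpholinos and 72.2 to 89.2 (median 80.4) in the 6 with them. Their log2 fold changes of -0.20 and -0.25 were called only with the block (adjusted p = 0.00189 and 0.00196 with it, 0.359 and 0.108 without). CCNB1 (2 of 2) had 0 to 4 counts per library and was not tested.

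All 10 kinesin genes had lower estimates with pbx2/4 morpholinos, within each of the 3 sets. Without the block 6 fell, and with it all 10 did. kif23 (ENSDARG00000014943), the motor of the centralspindlin complex that bundles the central spindle, had 129, 174 and 143 CPM in the 3 controls, 126, 184 and 152 in the 3 mutants, 95.9, 103 and 98.8 in the 3 morphants and 93.8, 109.6 and 105 in the 3 double embryos. The set B libraries were the highest of those without pbx2/4 morpholinos, and none of those with them reached the lowest, a fall of 0.58 log2 units (SE 0.11, adjusted p = 0.00568). KIF4A, a chromosome-bound kinesin that also sets the length of the central spindle, had 117 to 139 CPM (median 123) in the 6 libraries without pbx2/4 morpholinos and 76.6 to 103 (median 88.7) in the 6 with them, and fell by 0.50 (SE 0.09, adjusted p = 0.00599). kif11 (ENSDARG00000010948), the Eg5 motor that pushes the spindle poles apart, had 288, 273 and 304 CPM in the 3 controls, 284, 291 and 313 in the 3 mutants, 227, 208 and 252 in the 3 morphants and 213, 221 and 254 in the 3 double embryos. It fell by 0.35 (SE 0.08, adjusted p = 0.0162), and kif15, which can share its task, fell by 0.36 (SE 0.09, adjusted p = 0.0374). KIF18A, which damps chromosome movement at the equator, had 39.2 to 49.5 CPM (median 48.1) in the 6 libraries without pbx2/4 morpholinos and 31.7 to 40.7 (median 34.5) in the 6 with them, and fell by 0.37 (adjusted p = 0.0353). kif14, a motor of cytokinesis, had 54.3 to 65.3 CPM (median 59.4) in the 6 libraries without pbx2/4 morpholinos and 44.1 to 51.9 (median 47.9) in the 6 with them, and fell by 0.30 (adjusted p = 0.0449). The kif23 and KIF4A calls held in all 12 fits that leave out 1 library, kif11 lost its call without the control of set C (adjusted p = 0.0516), and kif15, KIF18A and kif14 kept theirs in 4, 3 and 1 of the 12 (adjusted p up to 0.107). Called only with the block were kif2c, a microtubule depolymerase, at -0.42, the minus-end motor kifc1 at -0.32, KIF20A at -0.22 and the chromosome-arm motor KIF22 at -0.21, with adjusted p-values of 9.08e-06, 0.00191, 0.000309 and 0.00291 in that fit and 0.0564, 0.0701, 0.0561 and 0.206 without the block.

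Among 5 genes of spindle assembly and cytokinesis, 2 fell without the block and 5 with it. tpx2 (ENSDARG00000078654), which activates Aurora A and starts microtubule growth around chromosomes, had 323, 362 and 378 CPM in the 3 controls, 338, 362 and 377 in the 3 mutants, 261, 259.8 and 277 in the 3 morphants and 249.9, 274 and 292 in the 3 double embryos. Every library with pbx2/4 morpholinos was below every one without, and tpx2 fell by 0.41 (SE 0.07, adjusted p = 0.00438), with -0.37, -0.44 and -0.41 within sets. nusap1, a microtubule-bundling protein gene, had 123 to 168 CPM (median 128) in the 6 libraries without pbx2/4 morpholinos and 97.0 to 112 (median 101) in the 6 with them and fell by 0.42 (SE 0.09, adjusted p = 0.0180), a call lost without the control of set C (adjusted p = 0.0563). Smaller were the values of the cleavage furrow genes ANLN, for anillin, at -0.28 and ect2, for an activator of RhoA, at -0.27, and of prc1b, for a central spindle bundler, at -0.20. These 3 were called only with the block (adjusted p = 0.000491, 0.00352 and 0.0191 with it, 0.0553, 0.102 and 0.568 without).

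Condensin, the ring complex that compacts chromosomes, had lower estimates in all 7 of its genes, of which 3 fell without the block and 7 with it. smc4 (ENSDARG00000038882), an ATPase arm shared by condensins I and II, had 271, 275 and 266 CPM in the 3 controls, 297, 279.9 and 252 in the 3 mutants, 207, 177 and 178 in the 3 morphants and 211, 180.4 and 194 in the 3 double embryos. The ranges were apart, and smc4 fell by 0.52 (SE 0.07, adjusted p = 0.00141). smc2 (ENSDARG00000017744), the other arm, had 274, 248 and 287 CPM in the 3 controls, 279, 263 and 274 in the 3 mutants, 233, 167 and 225 in the 3 morphants and 217, 181 and 241 in the 3 double embryos. It fell by 0.36 (SE 0.10, adjusted p = 0.0462), and its set B libraries were the lowest in each group. ncaph, the kleisin that closes the condensin I ring, had a median of 101 CPM in the 6 libraries without and 77.4 in the 6 with pbx2/4 morpholinos, with ranges that overlapped, and fell by 0.33 (SE 0.09, adjusted p = 0.0486). smc2 and ncaph each kept the call in 2 of the 12 fits that leave out 1 library (adjusted p up to 0.115 and 0.126). The other condensin I subunits, ncapd2 and ncapg, had -0.27 and -0.20, and the condensin II subunits ncapg2 and ncaph2 had -0.39 and -0.23. These 4 were called only with the block (adjusted p = 9.00e-05, 0.00131, 7.31e-05 and 0.00338 with it, 0.0921, 0.310, 0.113 and 0.264 without), and no order between condensins I and II was tested.

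Genes of the same complex or role thus had unequal estimates, and ratios taken within each library restate this for 5 pairs. The pairs nuf2 and spc25, INCENP and birc5a, and smc4 and smc2 are subunits of 1 complex each. BUB1 and mad1l1 were paired as checkpoint genes, and ccna2 and ccnb1 as cyclin genes. The ratio of nuf2 to spc25, set to a mean of 1 over the 3 controls, was 0.965 to 1.06 without pbx2/4 morpholinos and 0.611 to 0.831 with them, with no overlap, and the libraries with pbx2/4 morpholinos had 0.799, 0.777 and 0.657 times the ratio of those without in sets A, B and C. For INCENP over birc5a it was 0.802 to 1.25 without pbx2/4 morpholinos and 0.587 to 0.820 with them, which overlap, with 0.710, 0.651 and 0.789 times within the sets. BUB1 over mad1l1 gave 0.885 to 1.15 without pbx2/4 morpholinos and 0.567 to 0.836 with them, with no overlap and 0.750, 0.674 and 0.721 times within the sets. ccna2 over ccnb1 had 0.805 to 1.22 without pbx2/4 morpholinos and 0.602 to 1.00 with them, which overlap, with 0.805, 0.819 and 0.834 times within the sets. smc4 over smc2 had 0.914 to 1.10 without pbx2/4 morpholinos and 0.785 to 1.05 with them, which overlap, with 0.907, 0.947 and 0.865 times within the sets. All 5 ratios were lower with pbx2/4 morpholinos within each set. The first gene of each pair already had the lower estimate, so lower ratios follow from the choice of pairs. These pairs were chosen after their values were seen, so no test was made and the ratios add no support to the estimates. How many other gene pairs would have ranges without overlap was not counted.

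Each prdm1 genotype was then taken alone, to see whether the pbx2/4 morpholinos had the same effect with and without prdm1. In prdm1+/+ embryos (morphants against controls) INCENP and smc4 fell, 2 of 61, where 0.883% of all genes were called lower, and 41 fell with the block, where 9.95% were. In prdm1-/- embryos (double embryos against prdm1 mutants) the same 2 genes fell, where 0.811% of all genes were called lower, and 39 with the block, where 8.98% were. INCENP fell by 0.51 in prdm1+/+ (SE 0.09, adjusted p = 0.0111) and by 0.52 in prdm1-/- (SE 0.09, adjusted p = 0.00975). For smc4 these values were 0.53 (SE 0.11, adjusted p = 0.0284) and 0.50 (SE 0.11, adjusted p = 0.0389). Leaving out 1 library gave 0 to 3 genes in prdm1+/+ and 0 to 2 in prdm1-/-, and fits of the 2 groups alone gave 0 in both. For these fits too, shares over all genes are not given, so the counts lack a background. The medians of the 61 were -0.28 and -0.29. These comparisons share no library, though their libraries share sets, and across the 61 genes their changes had a Pearson's r of 0.87 and a Spearman's rho of 0.80, given as a description. Of the 61, 55 were lower in both and 3 higher in both. Over all genes 48.2% had lower estimates in prdm1+/+ and 48.0% in prdm1-/-, and the share lower in both is not given. The median gap between the 2 changes was 0.0394 on the log2 scale. The difference itself, the interaction, was called for 0 of the 61 and for 0 of all 18117 genes in edgeR's test, with or without the block, and for 0 of the 61 in DESeq2. At an unadjusted p under 0.05 it was called for 0 of the 61 and for 103 genes in all without the block. The 95% intervals of the interaction ranged down to -1.71 and up to 1.62 over the 61 genes, and for 2 of the 61 the lower bound was above -0.29. With the block this was so for 44 of the 61, so how large a further fall in prdm1-/- embryos the intervals allow depends on the fit. Against controls, double embryos had the same 2 genes lower, INCENP at -0.52 and smc4 at -0.47, where 1.41% of all genes were called lower, and 33 with the block, where 10.8% were.

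**Figure D4:**
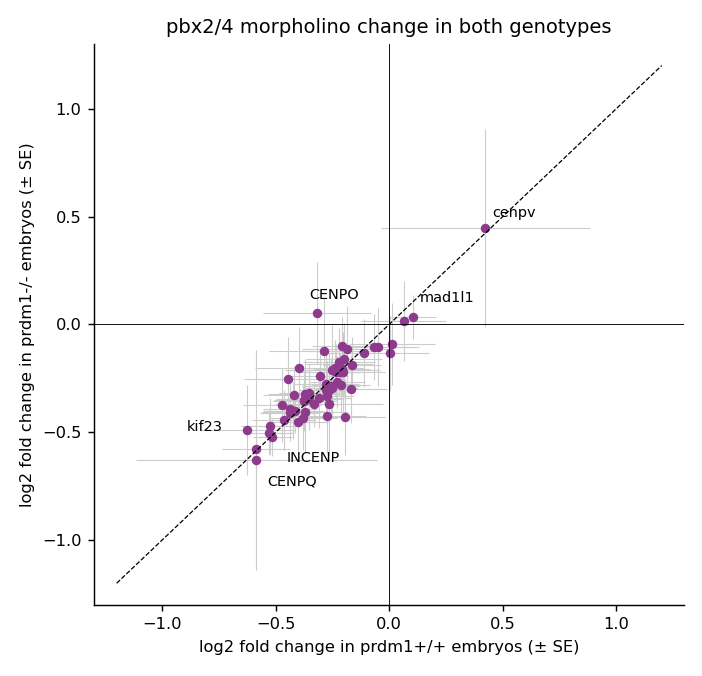
Log2 fold change with pbx2/4 morpholinos in prdm1+/+ embryos (x axis) and in prdm1-/- embryos (y axis) for the 61 genes, with standard errors as grey bars and the line of equal change dashed. Most points lie close to the line in the lower left, with 55 of 61 below 0 on both axes; CENPO is one of 3 that do not share a sign.

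Loss of prdm1 was the other comparison, with the control morpholino and with pbx2/4 morpholinos. Averaged over morpholinos, 0 of the 61 genes were called in edgeR's test, where 0.535% of all genes were, and 0 in DESeq2. At an unadjusted p under 0.05, edgeR's test had 1 of the 61 and 798 of all 18117 genes. The median log2 fold change was 0.04, and 54 of the 61 estimates lay within 0.1 of 0. Most of these small estimates were on 1 side, 48 higher and 13 lower, where 48.9% of all genes had lower ones. For 54 of the 61, the lower bound of the 95% interval was above -0.29, the median change with pbx2/4 morpholinos. ttk was the gene at an unadjusted p under 0.05, with 0.20 (SE 0.07, adjusted p = 0.670), and with the block it was the 1 member called higher (adjusted p = 0.0170), where 1.66% of all genes were called higher, a share like that of 1 in 61. That call was lost in 4 of the 12 fits that leave out 1 library, those without the control of set B, the mutant of set A, the morphant of set A or the double embryo of set C (adjusted p up to 0.0749). Its difference with prdm1 loss was 0.23, 0.20 and 0.18 log2 units within the sets. Taken singly, prdm1 mutants against controls had 0 of 61 called (0 at an unadjusted p under 0.05, 0 with the block and in DESeq2), where 0.193% of all genes were called (1.1% with the block), and double embryos against morphants likewise 0 (0 at an unadjusted p under 0.05, 0 with the block and in DESeq2), where 0.149% were (1.2% with the block). Of all 18117 genes, 480 and 491 had an unadjusted p under 0.05 in these comparisons in edgeR's test without the block. The lower bound of the 95% interval was above -0.29 for 30 of the 61 in prdm1 mutants against controls (57 with the block). In double embryos against morphants it was so for 34 (57 with the block). Without the block, the intervals of the other members thus reached a fall of that size. In these comparisons smc4 was at 0.03 (SE 0.11) and 0.06 (SE 0.11) log2 units, plk1 at -0.01 and 0.03, and ccnb1 at -0.03 and 0.01.

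Among genes of mitosis outside the names above, 54 of 59 tested identifiers had lower estimates with pbx2/4 morpholinos, averaged over genotypes, and 5 did not. Over all genes 48.0% had lower estimates. Of the 59, 16 fell and 0 rose (41 and 0 with the block), and the median was -0.27. Over all genes 4.23% were called lower and 2.95% higher, and with the block 16.6% and 15.5%. racgap1, the partner of kif23 in centralspindlin, fell from 107 ± 7.60 CPM in controls to 71.1 ± 1.53 in morphants (SD, n = 3; averaged log2 fold change -0.57, adjusted p = 0.000502). fbxo5, an inhibitor of the anaphase-promoting complex, fell by 0.64, top2a, the topoisomerase of condensed chromosomes, by 0.44 and MKI67, which coats them, by 0.45. foxm1, a transcription factor of G2 genes, had -0.31 and was called only with the block (adjusted p = 0.0723, 0.00176 with it). Genes of G1 and DNA replication had a lower median still, -0.48, with 18 of 26 called lower and 0 higher (26 and 0 with the block), and their summed level was 5378 to 5824 CPM without and 3341 to 4482 with pbx2/4 morpholinos. The difference between these lists was not tested.

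Genes of cell cycle arrest and the p53 response moved with the same comparison. Of 29 tested, 14 rose and 2 fell (15 and 4 with the block). Over all genes 2.95% were called higher and 4.23% lower, and with the block 15.5% and 16.6%. The 32 matched identifiers summed to 2060.4 to 2955 CPM in controls, 2006 to 3128 in prdm1 mutants, 4658 to 5744 in morphants and 5013 to 5468 in double embryos. cdkn1a, the p21 inhibitor of cyclin-dependent kinases, rose from 16.5 ± 7.39 CPM in controls to 52.5 ± 0.604 in morphants (SD, n = 3; averaged log2 fold change 1.68, adjusted p = 0.00166). ccng1, a cyclin G gene that p53 induces, rose by 1.79, btg1, an antiproliferative gene, by 0.54, and RBL2, a pocket protein gene of the retinoblastoma family, by 3.24. cdkn1b, the p27 inhibitor, had 0.06 (adjusted p = 0.789, 0.607 with the block). The part of these genes in the lower mitotic RNA was not tested. With prdm1 loss, averaged over morpholinos, 0 of the 29 were called by edgeR with or without the block. Over all genes 0.535% were called without it and 3.24% with it.

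Some markers of tissues that the whole embryo holds also differed with pbx2/4 morpholinos, averaged over genotypes. Over all genes 4.23% were called lower and 2.95% higher in that comparison, and with the block 16.6% and 15.5%. Lists of 3 to 7 markers are too short to set firmly against these shares. Neural progenitor markers summed to 829 to 918 CPM without and 642 to 747 with pbx2/4 morpholinos, and 4 of 7 fell, among them sox3 at -0.57 and sox19b at -0.34. Of 7 neuron markers 2 fell (4 with the block), with sums of 411 to 419.9 CPM in controls, 336 to 364 in prdm1 mutants, 299 to 335 in morphants and 257 to 265 in double embryos. Of 6 muscle markers 3 fell and 1 rose, with sums of 759 to 949 CPM in controls, 421 to 519 in prdm1 mutants, 650.4 to 833 in morphants and 389.9 to 399 in double embryos. The muscle and neuron sums thus also differed with prdm1 genotype. With prdm1 loss, averaged over morpholinos, 1 of the 6 muscle markers fell and 0 rose (1 and 1 with the block). That gene was the slow myosin gene smyhc1, at -2.43 log2 units (adjusted p = 3.54e-05). The median of the 6 was -0.09, and 4 had lower estimates. Of the 7 neuron markers 2 fell and 0 rose (3 and 0 with the block). Over all genes 0.535% were called (3.24% with the block). With pbx2/4 morpholinos 1 of 4 epidermis markers fell, tp63 at -0.54 (2 fell and 2 rose with the block). Epidermis sums overlapped, at 13950.5 to 16645 CPM without and 13644 to 17497 with pbx2/4 morpholinos. Of 4 blood markers 0 were called (3 lower with the block), and of 3 notochord and 3 germ cell markers 0 were called in either fit. The part of tissue composition in the mitotic gene levels was not tested.

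**Figure D5:**
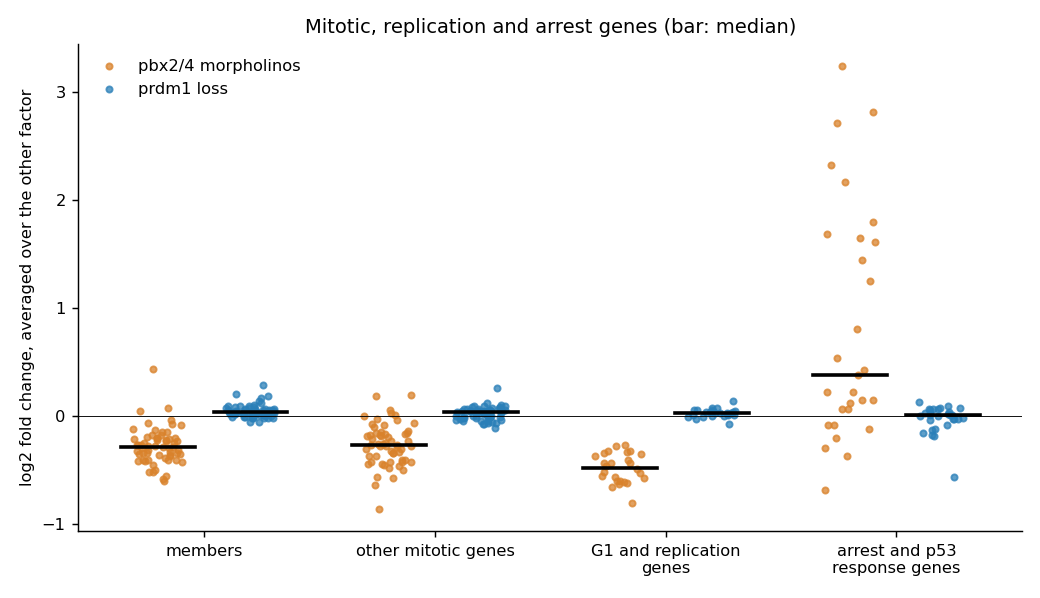
Log2 fold changes of single genes in 4 lists, for pbx2/4 morpholinos averaged over prdm1 genotypes (orange) and for prdm1 loss averaged over morpholinos (blue), with a black bar at each median. With pbx2/4 morpholinos the medians are -0.29 for the 61 mitotic genes, -0.27 for other mitotic genes, -0.48 for G1 and replication genes and 0.38 for arrest and p53 response genes; with prdm1 loss they are 0.04, 0.03, 0.03 and 0.00.

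The authors' deposited tables hold the same 61 genes against controls, with log fold changes that run from the treated group to control and so carry the opposite sign. In the authors' deposited table for pbx2/4 morphants, 14 of the 61 had an unadjusted p under 0.05, all 14 lower than control, and in their table for double embryos 11 did, again all lower. In the authors' deposited table for prdm1 mutants 0 did. The share of all genes under that threshold in the authors' tables was not counted here, so these counts have no background beside them. For INCENP the authors' deposited tables give 0.512 for morphants (unadjusted p = 0.00532) and 0.519 for double embryos, and for kif23 they give 0.575 (unadjusted p = 0.00355) and 0.516.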

How the data were processed

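The authors deposited 1 table of estimated counts per gene for 12 libraries, not normalised, of which 13.7% of the values were not whole (tolerance 1e-06). TopHat 1.4, edgeR and the Zv9 build are named per the submitters' processing notes. The counting tool and strand setting were not given in the sources used here. Whether overlapping genes share reads is therefore not known. Another 3 tables hold the authors' own comparisons, each gene with an unadjusted p-value as deposited. Their fold changes, made by the authors on a log scale of unstated base and run from treated to control, were read as log2 values. After sign reversal they lay within 0.182 of the log2 fold changes computed here for the genes reported, a bound too wide by itself to settle the base. For INCENP and smc4 in morphants the authors' deposited values were 0.512 and 0.532, against -0.51 and -0.53 computed here.

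Column names give the group but no replicate number. In 4 columns the group was read from W for wild type or M for mutant at prdm1. The names of these 4 end in B without pbx2/4 morpholinos and in A with them. What that letter marks is not stated, so within this name form it cannot be told apart from the pbx2/4 morpholinos. The name forms give 3 sets of 4 libraries. Deviations from group means correlated across genes at 0.45 to 0.67 for 18 pairs of libraries within a set and at -0.48 to -0.03 for 36 pairs across sets. The set therefore served as the replicate block in an alternative fit, while the main fit had no block. What a set stands for is not stated in the labels. Libraries of a group differed by a chi-square per gene of at least 12.2, so none were merged. p-values measure the spread between these libraries, which in the fit without the block includes the spread between sets.

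Rounded counts were tested with edgeR 4.0.16 in R 4.3.3 (filterByExpr by group, TMM scaling, quasi-likelihood F test, 4 groups in 1 model, 8 residual degrees of freedom), with Benjamini-Hochberg adjustment over 18117 genes and a threshold of 0.05. The design assumed counts and the test was kept for estimated counts. Averaged effects are contrasts of the 4 group means. A standard error is the size of the log2 fold change divided by the root of F. Within-set values use log2 CPM with a prior count of 2. A value of 1 count was 0.0572 to 0.115 CPM. The biological coefficient of variation was 0.212 without and 0.0754 with the block. Alternatives were the block, DESeq2 1.42.0, RLE scaling, no filter, unrounded counts, pairwise fits and leaving out libraries. Scripts were tested on simulated data. Genes and lists were chosen with earlier results of these data known. Named genes are those called in any comparison, the most abundant and the most changed of each role, and a core set; others were named after their values were seen. Of the 63 identifiers, 57 were in the reference table of names.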

Additional observations from a re-analysis of the deposited data

How the results depend on the processing

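Over 32 other settings the median averaged pbx2/4 change of the 61 genes ranged from -0.31 to -0.24, and 57 to 59 of those tested were lower. The count of genes called was less stable. For the averaged pbx2/4 effect it was 19, against 49 with the replicate block, 12 with no filter on low counts (more genes tested), 26 with DESeq2, and 8 to 18 with 1 library left out (45 to 49 with the replicate block as well, of which 1, cenpv, was higher in the fit without the control of set C). All 19 were also called with the block and by DESeq2. Without all 4 libraries of set A, B or C, settings chosen after seeing the data, it was 5, 6 and 0, with fewer samples. In these fits 34, 30 and 35 members had an unadjusted p under 0.05. With all 12 libraries and no block, 40 of the 61 members and 3765 of all 18117 genes did. Shares over all genes are not given here for the fits without a set, for DESeq2 or for no filter, so those counts lack a background. INCENP, smc4, kif23, KIF4A, plk1, tpx2 and aurkb kept their call without any 1 of the 12 libraries. kif11, ccna2 and nusap1 lost it without the control of set C (adjusted p up to 0.0563), BUB1 without any of 4 libraries (up to 0.0562: the control or prdm1 mutant of set A, or the morphant of set B or C), and KIF18A, kif15, smc2, nuf2, ttk, CENPF, ncaph and kif14 without any of 8 or more (up to 0.126). With the block all 19 kept it in all 12 such fits. For morphants against controls, double embryos against controls and double embryos against prdm1 mutants the count was 2, with the block 41, 33 and 39, with DESeq2 6 each and in pairwise fits 0 each. With no filter the latter 2 comparisons had 1 each. Leaving out 1 library gave 0 to 3, 1 to 2 and 0 to 2 (28 to 41, 24 to 35 and 29 to 42 with the block). For prdm1 loss averaged over morpholinos the count was 0, and 1 with the block (0 to 1 with a library left out as well). The other comparisons had 0 in every setting. RLE scaling and unrounded counts changed no count, and RLE moved the median of all genes by at most 0.00921. Of 6958 recomputed values of named genes, 5861 kept their side of the threshold, 172 lost and 925 gained a call, and 0 called values changed sign. Fits without the block had a spread that could hide changes of this size, so a missed threshold does not show that a gene was level.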
